A study of Oryza sativa with 16 samples.

Results

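The responses of rice seedlings to auxin and to abscisic acid (ABA) were set against each other on Affymetrix rice arrays. Indole-3-acetic acid (IAA) is the main natural auxin. Of the 16 arrays in the study, 8 entered the comparison, 2 biological replicates in each of 4 groups. All seedlings were of the indica variety IR64, grown in hydroponics for 7 days under 14 h of light and 10 h of dark. The IAA group was kept for 3 h in 50 µM IAA, the ABA group for 3 h in 100 µM ABA, and the groups control1 and control2 for 3 h in water. The other 8 arrays, which held seedlings given 4 other hormones (BAP, ACC, SA and JA), served only to estimate the spread and as a reference for levels. The auxin response was IAA minus control1 and the ABA response was ABA minus control2. Which control set was run beside a given hormone is not stated in the labels, so ABA results are also given as ABA minus control1. That second version shares the control1 arrays with the auxin response, and in the difference of both changes control1 then cancels, which leaves ABA minus IAA. The doses differ, so the comparison is of these treatments and not of equal amounts of hormone. RNA came from whole seedlings, in which fewer cells of a type and less RNA per cell cannot be told apart.

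Auxin is perceived by TIR1/AFB receptors, which mark Aux/IAA repressors for breakdown and so release auxin response factors (ARFs). Among the early targets are the Aux/IAA genes themselves and the GH3 enzymes, which conjugate auxin to amino acids. ABA is bound by PYL receptors, which block clade A protein phosphatases 2C (PP2Cs). SnRK2 kinases are then free to act on bZIP factors, and genes for late embryogenesis abundant (LEA) proteins and dehydrins are among the targets.

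The ABA response reached far more probe sets than the auxin response. Of 24100 probe sets tested, 570 (2.37%) differed between IAA and control1 at an adjusted p under 0.05 (limma, Benjamini-Hochberg), 393 higher (1.63%) and 177 lower (0.734%). Against control2, ABA changed 11911 probe sets (49.4%), 5230 higher (21.7%) and 6681 lower (27.7%). Against control1 it changed 12748 (52.9%), 5599 higher (23.2%) and 7149 lower (29.7%). The SD of the change over all tested probe sets was 0.43 on the log2 scale under IAA and 1.19 under ABA against control2. The auxin count depended on single arrays: it was 183 without control1 replicate 1, 265 without control1 replicate 2 and 310 without IAA replicate 1.

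A test of the difference of both changes, (ABA minus control2) minus (IAA minus control1), found 8371 probe sets (34.7%). In 3777 of them (15.7%) the ABA change was the more positive, and in 4594 (19.1%) the more negative. With control1 for both hormones the test found 13022 (54%), 5703 more positive (23.7%) and 7319 more negative (30.4%). Both versions called 7143 probe sets in the same direction and 50 in opposite directions. Replicate arrays correlated at 0.987 to 0.992 in the 4 groups. Across probe sets, the auxin change and the ABA change against control2 correlated weakly (Pearson's r 0.16, Spearman's rho 0.13, n = 24100), a description over features that share arrays.

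Auxin-responsive probe sets moved under ABA in both directions. Of the 393 raised by IAA, 159 (40.5%) also rose and 76 (19.3%) fell under ABA against control2, beside 21.7% and 27.7% of all tested probe sets. Of the 177 lowered by IAA, 93 (52.5%) fell and 29 (16.4%) rose under ABA. The probe sets moved the same way by IAA were 3.04% of those raised and 1.39% of those lowered by ABA. With control1 the counts were 151 higher under both, 100 lower under both, 81 higher under IAA and lower under ABA, and 34 the other way. The same combination with both control sets was found for 123, 85, 56 and 25 probe sets, which are described below by combination. The control2 counts for both higher, both lower and IAA higher with ABA lower were 50, 22 and 28 without control1 replicate 1, 92, 35 and 29 without control1 replicate 2, and 100, 39 and 37 without IAA replicate 1.

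**Figure D1:**
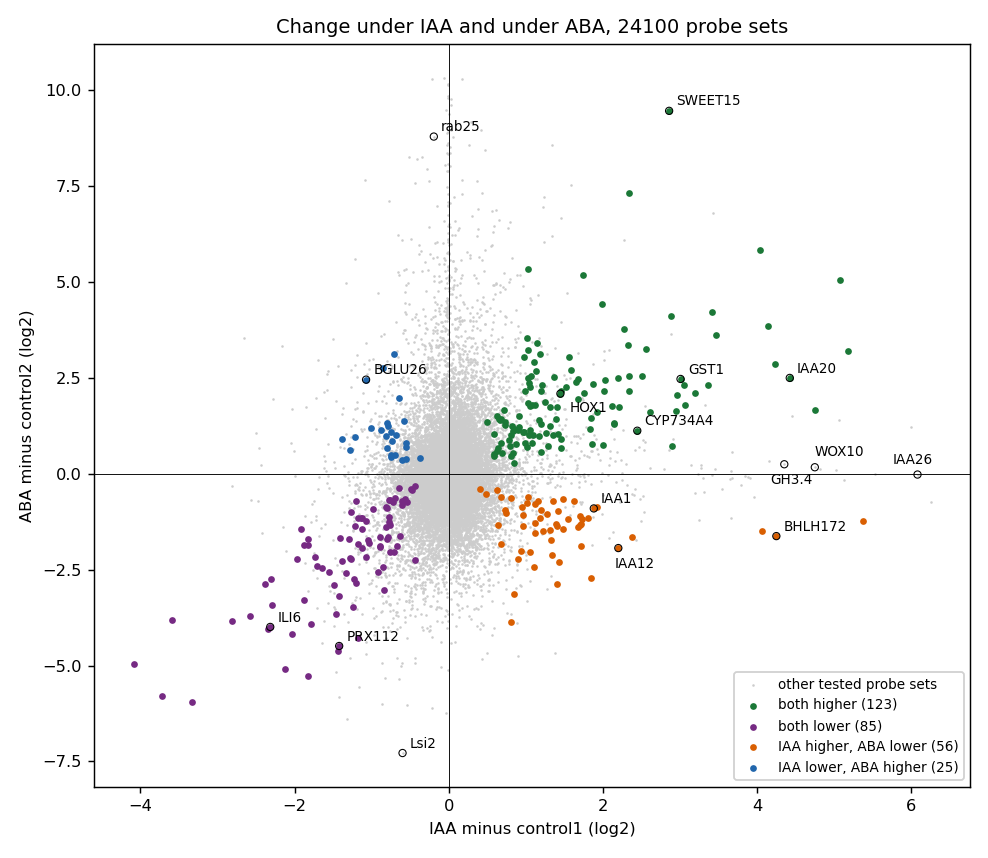
Change under IAA against control1 (x axis, log2) and under ABA against control2 (y axis, log2), 1 point per tested probe set. Coloured points moved under both hormones in the same combination with both control sets, and circled genes are named. Points spread further along the ABA axis (SD 1.19) than along the IAA axis (SD 0.43), and IAA26, WOX10 and GH3.4 lie far out on the IAA axis with ABA changes near 0. Of these, IAA26 and WOX10 passed the log2 5 filter only through their IAA arrays.

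Counts for gene families are read against the 14941 genes measured with 1 probe set each. Of these, IAA raised 1.67% and lowered 0.656%, ABA raised 22.5% and lowered 30.5% against control2, and 24.1% and 31.4% against control1. The difference of both changes was called more positive under ABA in 16.3% and more negative in 21.1% with control2. With control1 these shares were 24.2% and 31.8%.

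The Aux/IAA repressors included members with opposite responses. Of 25 measured members, IAA raised 14 (56%) and lowered 1 (4%), while ABA against control2 raised 6 (24%, near the 22.5% of all genes) and lowered 12 (48%, beside 30.5%). The difference of both changes was called in 18 members with control2. In 17 of them (68% of the list, beside 21.1% of all genes) the ABA change was the more negative. A set of 6 members (IAA1, IAA10, IAA12, IAA14, IAA30 and IAA31) rose under IAA and fell under ABA with either control set, beside 35 of the 14941 genes measured. The median change of the list was 0.85 under IAA and -0.33 under ABA against control2, where the medians over all measured genes were 0.01 and -0.08.

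IAA12 moved furthest both ways. Its log2 values were 10.94 and 11.08 in control1, 13.51 and 12.92 under IAA, 10.95 and 10.74 in control2, and 8.95 and 8.88 under ABA. Both IAA arrays lay above all controls and both ABA arrays below them. It rose by 2.20 ± 0.20 (SE, n = 2) under IAA (limma, adjusted p = 0.000108) and fell by 1.94 ± 0.20 under ABA (adjusted p = 8.02e-06). The difference of -4.13 ± 0.28 had an adjusted p of 9.53e-07, and on the 8 arrays of the other hormones the gene stayed between 10.17 and 11.87.

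IAA1 stood at 10.97 and 11.12 in control1, 12.96 and 12.89 under IAA, 11.12 and 11.32 in control2, and 10.17 and 10.46 under ABA. Both IAA arrays lay above all controls and both ABA arrays below them, and the difference of the changes was -2.78 ± 0.20 (limma, adjusted p = 1.47e-06). IAA14 rose by 1.71 ± 0.36 and fell by 1.88 ± 0.36, with the larger error from IAA values of 10.30 and 8.80. IAA10, IAA31 and IAA30 rose by 1.62, 1.02 and 0.41 under IAA and changed by -0.70, -0.59 and -0.39 under ABA against control2. IAA1, IAA10 and IAA12 kept this combination in all 15 alternative fits, IAA31 in 13, and IAA14 and IAA30 in 10.

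Other Aux/IAA genes responded to IAA with no call under ABA, or rose under both. IAA26 was at 2.23 and 2.22 in control1 and at 2.25 on both ABA arrays, and reached 8.24 and 8.38 under IAA, the largest auxin change of the list (6.08 ± 0.19, limma, adjusted p = 9.44e-09). IAA4 followed the same course, with 4.09 and 4.15 in control1, 7.85 and 6.85 under IAA, and 4.13 and 4.09 under ABA. IAA20 rose under both, by 4.42 ± 0.23 under IAA and 2.50 ± 0.23 under ABA against control2, and by 0.78 against control1. IAA24 rose by 1.83 ± 0.16 and 1.18 ± 0.16, and IAA13 by 0.85 and 0.29. In all of these the ABA change was smaller than the auxin change, with adjusted p of 0.000942 for IAA20, 0.0414 for IAA24 and 0.00953 for IAA13. IAA7 was the member lower under both, by -0.78 under IAA and -1.26 under ABA, and kept that combination in 7 of 15 alternative fits.

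**Figure D2:**
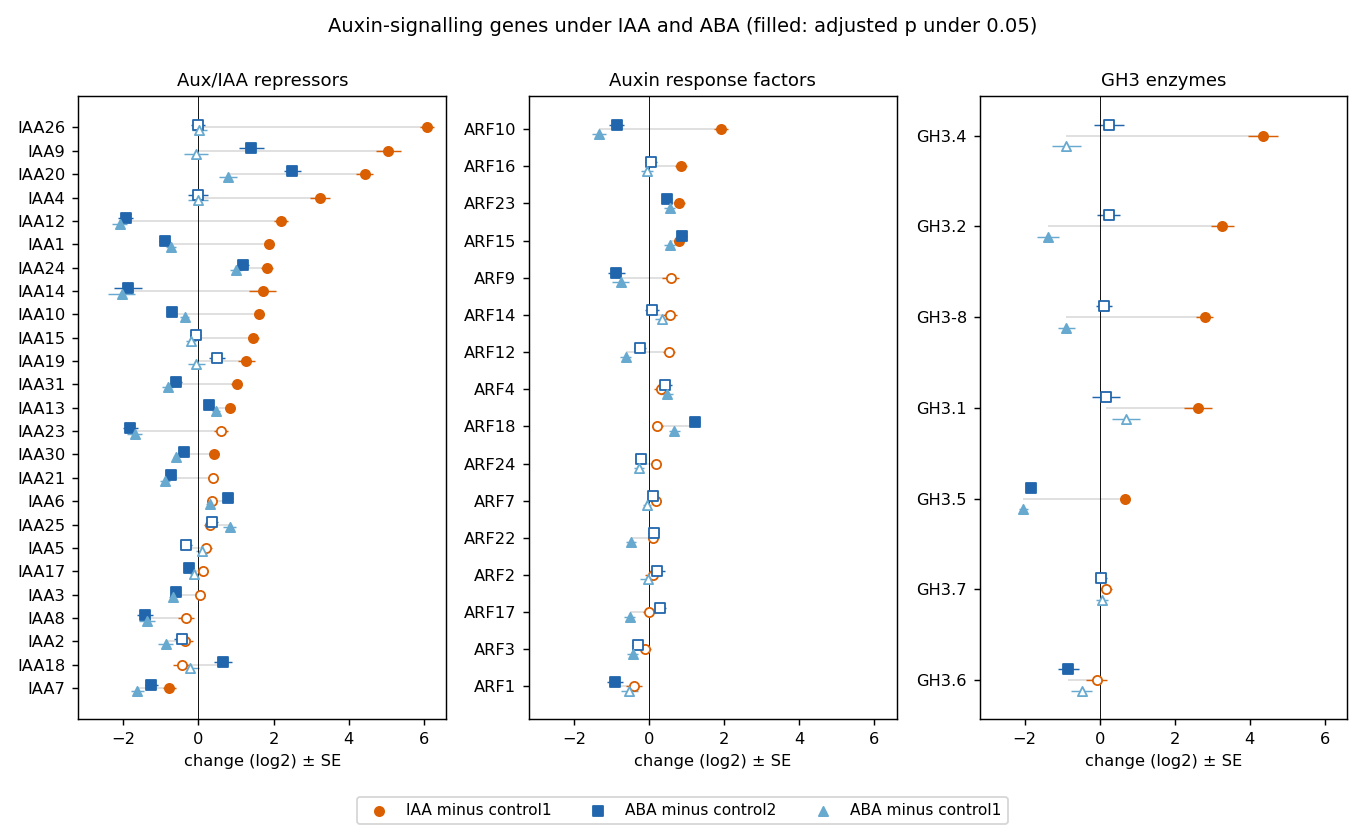
Change of each measured Aux/IAA, ARF and GH3 gene (x axis, log2, bars show the SE of the fit) under IAA against control1 and under ABA against control2 and control1. Filled symbols passed an adjusted p of 0.05. In IAA12, IAA1, IAA14 and ARF10 the IAA symbols lie to the right of 0 and both ABA symbols to the left.

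ARFs, the DNA-binding partners of the Aux/IAA proteins, moved less. Of 16 measured, IAA raised 4 (25%) and lowered 0, with a median change of 0.27. ABA against control2 raised 3 and lowered 3 (18.8% each, below the 22.5% and 30.5% of all genes), with a median of 0.09. Against control1, ABA raised 4 (25%, beside 24.1% of all genes) and lowered 6 (37.5%, beside 31.4%), with a median of -0.17. ARF10 was the member with opposite responses. It read 7.73 and 7.83 in control1, 9.87 and 9.54 under IAA, 7.55 and 7.09 in control2, and 6.41 and 6.49 under ABA. Again IAA was above and ABA below every control array, and the difference of the changes was -2.79 ± 0.27 (limma, adjusted p = 1.51e-05). ARF15 rose by 0.79 under IAA and 0.88 under ABA and ARF23 by 0.80 and 0.48, and for neither was a difference called (adjusted p = 0.75 and 0.242).

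GH3 enzymes were called higher under IAA and none higher under ABA, also at an unadjusted p under 0.05 (limma). Of 7 measured, 5 rose under IAA, and ABA against control2 raised 0 and lowered 2 (28.6%, near the share of all genes). The difference was called in 5 (71.4%, beside 21.1% of all genes), each more negative under ABA. The median change of the list was 2.62 under IAA, 0.12 under ABA against control2 and -0.89 under ABA against control1. GH3.4 stood at 7.29 and 6.93 in control1, 11.79 and 11.14 under IAA, 5.49 and 6.45 in control2, and 5.90 and 6.54 under ABA. Its ABA and control2 arrays overlapped, and the difference of the changes was -4.10 ± 0.55 (limma, adjusted p = 0.000178). GH3.5 was the member with opposite calls with either control set. It rose by 0.68 ± 0.13 under IAA and fell by 1.84 ± 0.13 under ABA against control2, a combination kept in 11 of 15 alternative fits. With control1, GH3-8 and GH3.2 also had opposite calls, with IAA changes of 2.79 and 3.27 and ABA changes of -0.89 and -1.38. Of 4 WOX homeobox genes, which include regulators of crown root growth in rice, IAA raised 3 and ABA against control2 raised the other one, WOX8, by 0.80 ± 0.14 (limma, adjusted p = 0.000585). Under IAA WOX8 changed by 0.27 with no call (adjusted p = 0.427), and against control1 its ABA change of 0.22 was not called. WOX10 read 2.10 and 2.26 in control1 and 6.72 and 7.14 under IAA, and 2.48 and 2.10 under ABA, close to control2 at 2.10 and 2.14. It passed the log2 5 filter only through its IAA arrays, so its call under IAA is not independent support.

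Outside these families, named genes that rose under IAA and fell under ABA included PID and LOG. PID, whose Arabidopsis relative PINOID is a kinase that acts on PIN auxin transporters, read 8.31 and 8.22 in control1, 10.31 and 9.68 under IAA, 8.44 and 8.36 in control2, and 7.18 and 7.25 under ABA. IAA stood above and ABA below the 4 controls, and the difference was -2.91 ± 0.27 (limma, adjusted p = 1.07e-05). LOG, which releases active cytokinin, read 9.74 and 9.82 in control1, 11.34 and 10.66 under IAA, 10.24 and 10.29 in control2, and 8.88 and 8.67 under ABA. Its groups did not overlap, with a difference of -2.72 ± 0.32. PID kept its combination in all 15 alternative fits and LOG in 12.

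The transcription factor gene BHLH172 had the widest gap among the genes with opposite calls. It read 6.46 and 6.85 in control1, 11.34 and 10.46 under IAA, 5.32 and 5.76 in control2, and 3.94 and 3.89 under ABA. It rose by 4.25 ± 0.41 and fell by 1.62 ± 0.41, and the difference of -5.87 ± 0.57 had an adjusted p of 1.77e-05 (limma). The ABA values were among the low ones on these arrays, where background correction weighs most on a fold. HOX2, a homeodomain-leucine zipper factor, rose by 1.12 ± 0.17 and fell by 1.28 ± 0.17. EXP6, an expansin that loosens cell walls, rose by 0.96 ± 0.14 and fell by 1.06 ± 0.14. For bHLH081 the changes were 1.42 ± 0.28 and -0.98 ± 0.28, and it kept the opposite calls in 7 of 14 alternative fits.

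**Figure D3:**
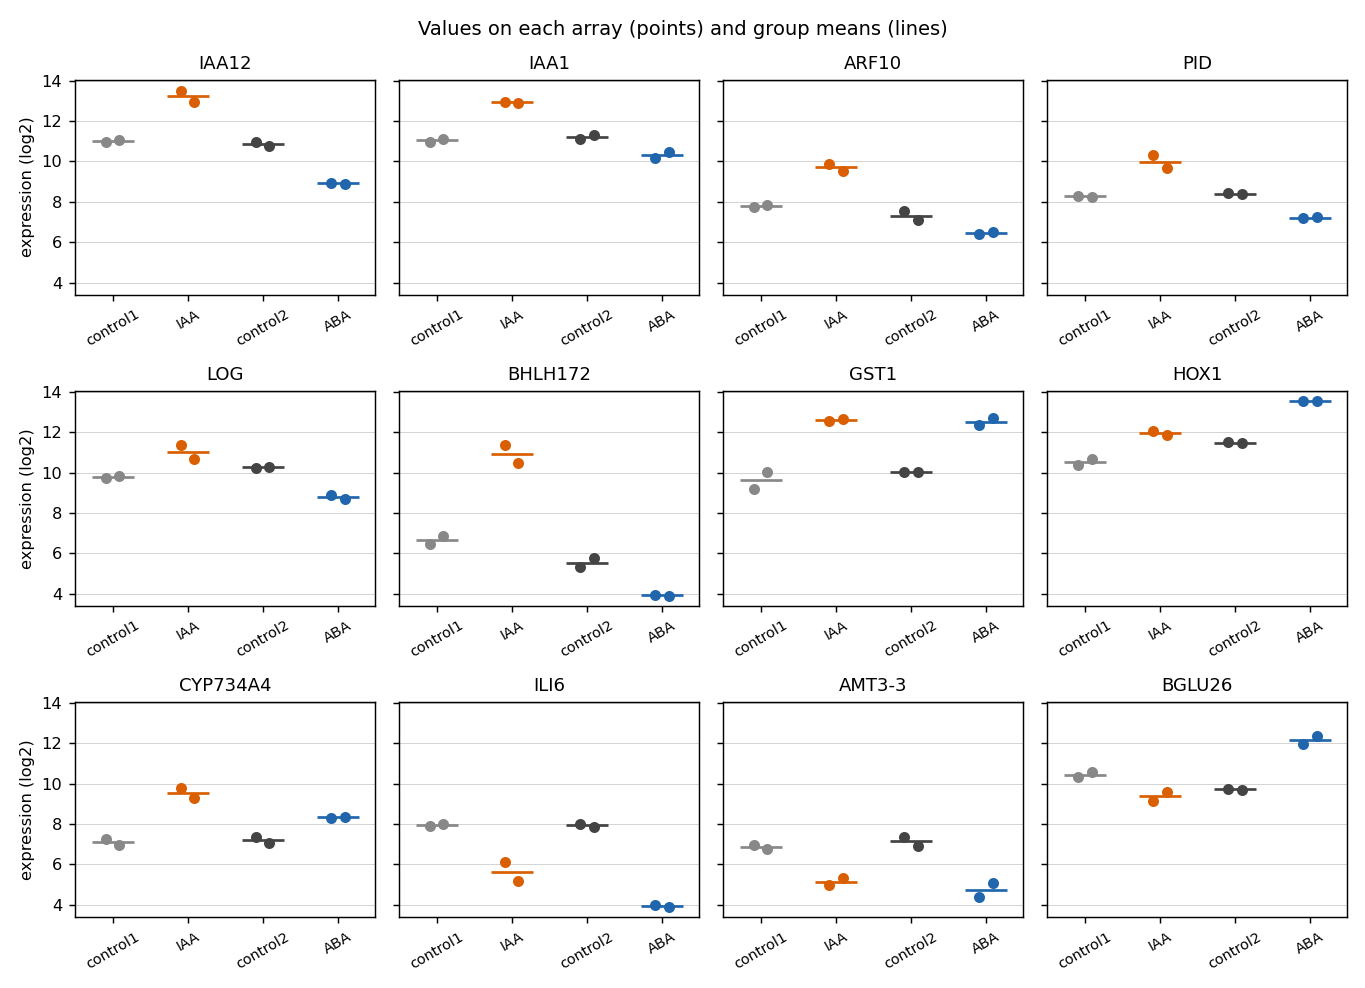
Log2 expression of 12 genes on each array (points) with the group mean (line), for control1, IAA, control2 and ABA. IAA12, IAA1, ARF10, PID, LOG and BHLH172 were above control1 under IAA and below control2 under ABA, GST1, HOX1 and CYP734A4 were above both, ILI6 and AMT3-3 below both, and BGLU26 was below control1 under IAA and above control2 under ABA.

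Genes raised by both hormones included glutathione S-transferases. Of 6 measured glutathione S-transferases, 3 (GST1, GSTU6 and GSTZ5) rose under IAA and under ABA with either control set, beside 79 of 14941 genes, and the list's median changes were 0.70 and 0.77. GST1 read 9.19 and 10.03 in control1, 12.57 and 12.67 under IAA, 10.05 on both control2 arrays, and 12.35 and 12.70 under ABA. The treated arrays lay above all controls, with changes of 3.01 ± 0.27 and 2.48 ± 0.27, and no difference was called between them (-0.53 ± 0.38, limma, adjusted p = 0.307). Its probe set is of a kind that can match several transcripts of a family. GSTU6 changed by 2.15 ± 0.33 and 1.29 ± 0.33. On arrays of the other hormones GST1 ranged from 9.70 to 13.85 and GSTU6 from 11.58 to 14.95, so high values of both also occurred outside IAA and ABA.

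CYP734A4, a P450 that inactivates brassinosteroids, rose more under IAA. It read 7.26 and 6.94 in control1, 9.79 and 9.31 under IAA, 7.36 and 7.05 in control2, and 8.31 and 8.35 under ABA. The order IAA, ABA, controls held on all 8 arrays, and the difference was -1.32 ± 0.30 (limma, adjusted p = 0.00577). HOX1, also of the homeodomain-leucine zipper family, rose more under ABA, with 10.35 and 10.67 in control1, 12.05 and 11.87 under IAA, 11.49 and 11.44 in control2, and 13.56 and 13.55 under ABA. Its difference was 0.64 ± 0.18 (adjusted p = 0.0181). The phosphatase gene OsPP2C69 rose by 2.11 ± 0.28 and 1.77 ± 0.28, and MADS27, a MADS-box factor, by 1.05 ± 0.22 and 1.00 ± 0.22. MADS27 kept its combination in 8 of 15 alternative fits, and a second probe set of it, with changes of 1.02 and 1.32, was not called under both.

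An unnamed gene, LOC4346877, had the largest smallest-of-3 changes among probe sets higher under both, and was chosen after its values were seen. It read 5.38 and 7.20 in control1, 11.12 and 11.61 under IAA, 5.45 and 6.05 in control2, and 11.14 and 10.45 under ABA. The changes of 5.08 ± 0.63 and 5.05 ± 0.63 had no called difference (limma, adjusted p = 0.984), and on the arrays of the other hormones its values spanned 5.98 to 12.88.

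SWEET15, a sugar exporter, had the largest ABA change among named genes raised by both. It read 4.65 and 5.46 in control1, 8.59 and 7.23 under IAA, 2.39 and 2.74 in control2, and 11.88 and 12.17 under ABA. The change was 2.86 ± 0.61 under IAA and 9.47 ± 0.61 under ABA, or 6.98 ± 0.61 against control1. SMR1, named for inhibitors of cyclin-dependent kinases, rose by 1.14 ± 0.25 under IAA and by 3.42 ± 0.25 under ABA against control2. Against control1 its ABA change was 1.19 ± 0.25, and no difference between ABA and IAA was then called (limma, adjusted p = 0.89). SMR1 was higher under both in 8 of 15 alternative fits and SWEET15 in 11. SAT1, whose probe set can also match other transcripts, gave a like pattern, with a difference of 1.12 with control2 and -0.05 with control1.

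Calls of a difference within the shared combinations are read beside those over all 24100 tested probe sets, 34.7% with control2 and 54% with control1. Among the 159 probe sets higher under both with control2, the ABA change was the larger in 32 and the smaller in 15, and in 112 no difference was called. Among the 93 lower under both, 34 fell further under ABA and 59 had no call. With control1, the ABA change was the larger in 42 and the smaller in 24 of the 151 higher under both, and 85 had no call. Of the 100 lower under both with control1, 46 fell further and 3 less far under ABA, and 51 had no call. These counts were not tested against the share of all probe sets. A missed threshold does not show that both hormones acted alike.

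Genes lowered by both included ILI6, a helix-loop-helix protein without a basic region. It read 7.91 and 8.02 in control1, 6.13 and 5.17 under IAA, 8.0 and 7.86 in control2, and 3.97 and 3.92 under ABA. IAA lay below all 4 controls and ABA lower still, with a difference of -1.68 ± 0.44 (limma, adjusted p = 0.0114). AMT3-3, an ammonium transporter, read 6.96 and 6.76 in control1, 4.99 and 5.31 under IAA, 7.36 and 6.91 in control2, and 4.41 and 5.07 under ABA. Its IAA and ABA arrays overlapped, and no difference was called (-0.68 ± 0.43, adjusted p = 0.246).

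CSLC3, of the cellulose synthase-like C family that makes xyloglucan backbones, fell by 1.13 ± 0.15 under IAA and 1.15 ± 0.15 under ABA, with no difference called. The class III peroxidase PRX112 fell further under ABA, by 4.49 ± 0.32 against 1.42 ± 0.32 under IAA (limma, adjusted p of the difference 0.00032), and was lower under both in 8 of 15 alternative fits. The endoplasmic reticulum chaperone BIP1 fell by 0.63 ± 0.10 and 1.63 ± 0.10. OsCASPL1U3 and OsCASPL2D1, of the Casparian strip membrane protein-like family, fell by 1.08 and 0.47 under IAA and by 2.17 and 0.43 under ABA. The 85 probe sets lower under both with either control set held the chosen probe set of 45 annotated genes.

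The combination lower under IAA and higher under ABA held 29 probe sets with control2, the fewest of the 4 combinations. Without single arrays it held 6 (control1 replicate 1), 3 (control1 replicate 2), 9 (IAA replicate 1) and 84 (IAA replicate 2), and 1 of the 29 kept its combination in all 15 alternative fits. Its median changes were -0.75 and 0.95, and 3 of the 29 changed at least 2-fold under both hormones. BGLU26, a beta-glucosidase, read 10.31 and 10.58 in control1, 9.14 and 9.61 under IAA, 9.72 and 9.70 in control2, and 11.97 and 12.36 under ABA. ABA stood apart from all other arrays, while the IAA values were near control2, and the difference was 3.53 ± 0.28 (limma, adjusted p = 3.3e-06). DJC27, a DnaJ-type co-chaperone, changed by -1.01 ± 0.21 and 1.19 ± 0.21, and ML2, a Mei2-like RNA-binding protein, by -0.55 ± 0.12 and 0.81 ± 0.12. DJC27 kept its combination in 8 of 15 alternative fits, ML2 in 9 and BGLU26 in 12. The 2 further ML2 probe sets were not in this combination.

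Genes of the core ABA pathway were called under ABA. The 0 calls under IAA given below are near its share of all genes (1.67% higher and 0.656% lower). The measured ABA receptor, PYL11, fell by 1.10 ± 0.13 under ABA against control2 (limma, adjusted p = 3.55e-05). All 7 measured clade A PP2Cs rose under ABA with either control set and 0 were called under IAA (median changes 5.12 and 0.36). The difference was called in 7 with control2, each more positive under ABA, beside 16.3% of all genes. At an unadjusted p under 0.05 (limma), IAA passed 3 of the 7, all higher. PP2C51 was near the bottom of the scale, at 2.12 and 2.40 in control1, 2.11 and 2.10 under IAA, and 2.12 and 2.15 in control2. It reached 9.03 and 9.21 under ABA (6.99 ± 0.17, limma, adjusted p = 1.33e-10). Only the ABA arrays put PP2C51 over the log2 5 filter, so this p is not independent support. PP2C30 read 8.16 and 9.29 in control1, 10.18 and 9.73 under IAA, 6.82 and 6.23 in control2, and 13.81 and 13.66 under ABA. Its IAA arrays lay above its control1 arrays, though the change of 1.24 ± 0.42 was not called (adjusted p = 0.182).

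All 9 LEA and dehydrin genes rose under ABA with either control set and 0 were called under IAA (median changes 3.24 and -0.06). With control2, 7 had a called difference, each more positive under ABA (77.8%, beside 16.3% of all genes). At an unadjusted p under 0.05 (limma), 1 of the 9 was higher under IAA. The LEA gene rab25 read 4.85 and 3.85 in control1, 3.88 and 4.43 under IAA, 3.27 and 3.28 in control2, and 11.79 and 12.35 under ABA. IAA arrays fell within control1, and the difference was 8.99 ± 0.45 (limma, adjusted p = 1.17e-07). As rab25 passed the log2 5 filter only through its ABA arrays, this p is not independent support. The size of the ABA change of other members depended on the control set. EM read 2.88 and 2.31 in control1, 2.88 and 4.56 under IAA, 12.08 and 11.75 in control2, and 14.42 and 14.35 under ABA. Its ABA change was therefore 2.47 ± 0.46 with control2 and 11.79 ± 0.46 with control1, and the difference from IAA was not called with control2 (adjusted p = 0.129). RAB16D likewise read 5.46 and 7.79 in control1 and 9.31 and 9.59 in control2, beside 15.61 and 15.74 under ABA.

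SnRK2 kinases split, with 5 of 10 raised (50%) and 3 lowered (30%, beside 30.5% of all genes) by ABA against control2 and 0 called under IAA (limma, with 2 higher at an unadjusted p under 0.05). SAPK1 rose by 2.73 ± 0.15 and sapk2 fell by 1.27. All 3 measured bZIP and VP1-type factors (ABF2, TRAB1 and VP1) rose, by 2.85, 1.90 and 4.17. Of these, VP1 passed the log2 5 filter only through its ABA arrays. The ABA 8'-hydroxylase genes ABA8OX1 and ABA8OX2, whose products break down ABA, rose by 2.79 and 4.94. Among the genes with the largest difference in favour of ABA were the small heat shock gene HSP18.6 (8.75 ± 0.58) and R1C-Prx, a peroxiredoxin (8.32 ± 0.55).

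**Figure D4:**
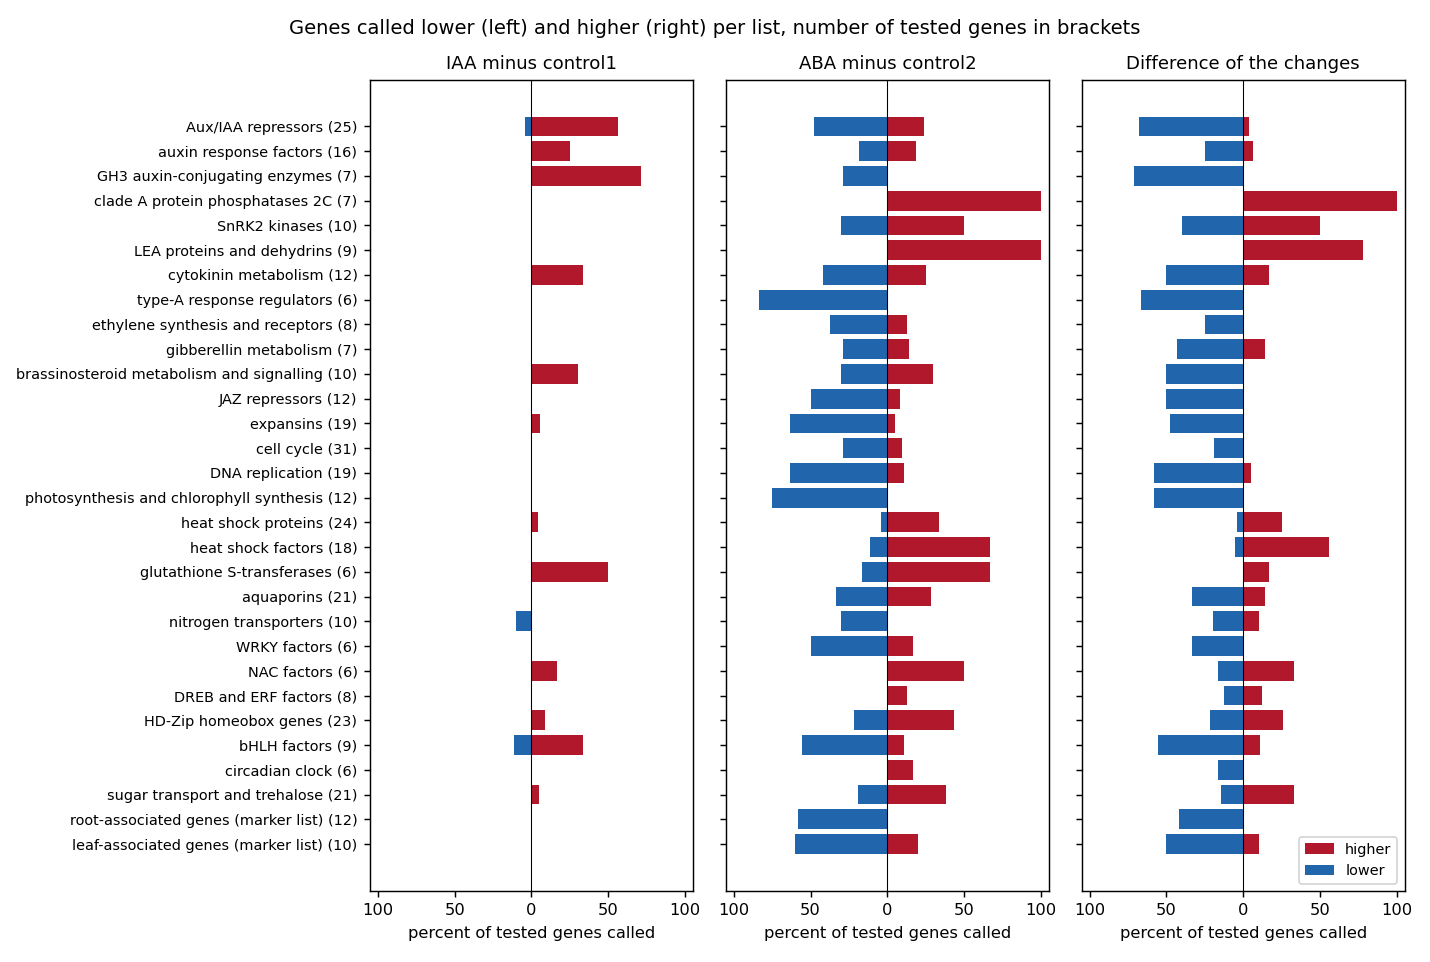
Percent of the measured genes of each list with at least 6 members that were called lower (left) or higher (right) in IAA minus control1, ABA minus control2 and the difference of both changes. Under IAA, the GH3 (5 of 7) and Aux/IAA (14 of 25) lists had the largest shares called higher. ARFs (25%) stood below glutathione S-transferases (50%), cytokinin metabolism and bHLH factors (33.3% each) and brassinosteroid genes (30%). All 7 PP2C and 9 LEA genes were higher under ABA.

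ABA lowered expansins and DNA replication genes at shares above that of all genes and cell cycle genes at about that share, and these shares were not tested against each other. Of 19 expansins, ABA against control2 lowered 12 (63.2%, beside 30.5% of all genes) and raised 1, and IAA raised 1 (median changes -1.06 and 0.06). EXP2 read 10.68 and 10.58 in control1, 11.24 and 10.83 under IAA, 10.90 and 11.15 in control2, and 6.87 and 7.11 under ABA. Of 19 DNA replication genes, ABA lowered 12 (63.2%) and raised 2, and 0 were called under IAA (median changes -2.03 and -0.32). By limma's unadjusted p under 0.05, however, 9 of the 19 were lower under IAA. PCNA, the sliding clamp of the replication fork, read 10.98 and 10.97 in control1, 10.51 and 10.33 under IAA, 10.99 and 11.12 in control2, and 7.95 and 8.06 under ABA. Its IAA change of -0.55 did not pass the test (limma, adjusted p = 0.138), and the difference of -2.49 ± 0.24 did. Of 31 cell cycle genes, ABA against control2 lowered 9 (29%, near the share of all genes) and raised 3 (9.68%), with a median change of -0.24. IAA called 0 of the 31, with 6 lower at an unadjusted p under 0.05 (limma).

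Genes of other hormones showed both shared and separate calls. Of 12 cytokinin metabolism genes IAA raised 4, among them LOGL3 by 2.24 ± 0.21 and the cytokinin oxidase CKX4 by 1.79 ± 0.19. ABA against control2 raised 3 (25%) and lowered 5 (41.7%), not far from the 22.5% and 30.5% of all genes. Type-A response regulators, which respond to cytokinin, were lowered by ABA in 5 of 6 (83.3%) with 0 called under IAA. Of 12 JAZ repressors of jasmonate signalling, ABA lowered 6 (50%) with control2 and 10 (83.3%) with control1, and IAA 0. Of 4 measured auxin transporters of the PIN family 0 were called under IAA and 3 were lowered by ABA. PIN3A fell by 1.47, PIN5A by 1.75 and PIN2 by 1.01 against control2. These counts use 1 probe set per gene. A second PIN3A probe set changed by 1.06 under IAA and -0.68 under ABA, and a second JAZ10 probe set by 1.58 and -1.075. At an unadjusted p under 0.05 (limma), IAA passed 3 of the 6 response regulators, all lower, and 3 JAZ and 2 PIN genes, all higher.

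Brassinosteroid genes were called under IAA in 3 of 10 (CYP734A4, CYP734A6 and BZR3, all higher). CYP734A6, a relative of CYP734A4, rose by 1.71 under IAA and had an ABA change of -0.77 that did not pass (limma, adjusted p = 0.06), and the changes differed (-2.49, adjusted p = 0.0013). Among 6 NAC factors NAC067 rose under IAA, by 2.07, with -0.04 under ABA against control2, while NAC2 and NAC048 rose under ABA, by 3.61 and 2.07. Of 23 homeodomain-leucine zipper genes IAA raised 2 (HOX1 and HOX2), and ABA against control2 raised 10 (43.5%) and lowered 5 (21.7%), where 22.5% and 30.5% of all genes were called. With control1, 10 were raised and 10 lowered. HOX7 read 6.12 and 6.10 in control1, 6.11 and 6.16 under IAA, 6.05 and 5.91 in control2, and 10.75 and 10.90 under ABA, so ABA stood apart from the rest.

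Plastid genes were called under ABA, and the 0 calls under IAA given below are near its share of all genes (1.67% higher and 0.656% lower). Of 12 photosynthesis and chlorophyll synthesis genes, ABA lowered 9 (75%, beside 30.5% of all genes) with control2 and 7 (58.3%, beside 31.4%) with control1, and IAA called 0. PORA, which makes chlorophyllide in the light, fell by 3.73 with control2 and 4.74 with control1. All 4 measured genes of chlorophyll breakdown and senescence (SGR, RCCR1, NOL and NYC1) rose under ABA, and 0 were called under IAA. SGR, which removes magnesium from chlorophyll, read 10.61 and 10.65 in control1, 10.46 and 10.90 under IAA, 10.13 on both control2 arrays, and 13.26 and 13.63 under ABA. The difference of the changes was called and positive in all 4 with control2, beside 16.3% of all genes, at 3.26 for SGR. Of 18 heat shock factors ABA raised 12 (66.7%) and lowered 2 with control2 but raised 8 (44.4%) and lowered 0 with control1, and IAA called 0. HSFC2A and HSFA6B rose by 5.19 and 6.89 under ABA. At an unadjusted p under 0.05 (limma), IAA passed 0 photosynthesis and 0 chlorophyll breakdown genes, and 5 heat shock factors higher and 3 lower.

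Root and shoot markers were also measured in the RNA. The 12 root-associated genes averaged log2 11.55 to 11.82 on the control arrays, 11.33 and 11.35 under IAA, and 10.24 and 10.04 under ABA. A few members carried that fall, since the mean ABA change against control2 was -1.50 but the median -0.69, and without Lsi2, left out after its values were seen, the mean was -0.97. The 10 leaf-associated genes averaged 12.37 to 12.77 in the controls, 12.83 and 12.98 under IAA, and 12.29 and 12.24 under ABA. Of 14 matched root genes 12 passed the filter and were measured, and of 11 matched leaf genes 10. No measured member was below log2 5 on all 8 arrays, but the filter at log2 5 made that likely beforehand. The list means above show only that the measured markers of both organs were detected. ABA against control2 lowered 7 of the 12 root genes (58.3%) and 6 of the 10 leaf genes (60%), beside 30.5% of all genes, and raised 2 leaf genes (20%), near the 22.5% of all genes. IAA called 0 of either list (limma, with 3 root genes lower and 1 leaf gene higher at an unadjusted p under 0.05). The silicon exporter Lsi2 fell from 12.61 and 12.34 in control2 to 6.17 and 4.22 under ABA, and under IAA read 10.69 and 11.09. The part of a shifted root and shoot share in the ABA calls was not tested.

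The control sets themselves differed in places that bear on both hormones. Of the 570 probe sets called under IAA, ABA had the same call with both control sets in 289, opposite calls in 2, a call with control2 only in 66 and with control1 only in 75. Over all 24100 tested probe sets these counts were 9008, 124, 2779 and 3616. The shares called with a single control set were thus near those of all tested probe sets. WOX11, a crown root regulator, read 10.55 and 10.90 in control1, 12.66 and 12.29 under IAA, 7.30 and 6.08 in control2, and 6.92 and 6.46 under ABA. ABA overlapped control2 and lay below control1, a change of -4.03 ± 0.35 with that set (limma, adjusted p = 2.53e-06). WOX6 and GH3.2 were likewise called lower against control1 only, by -1.32 and -1.38. IAA9 was called higher against control2 only (1.41 ± 0.33, against -0.06 with control1), and under IAA it rose by 5.06 ± 0.33.

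BBD1, of the bifunctional nuclease family, changed combination with the control set. It read 8.30 and 7.86 in control1, 9.17 and 9.02 under IAA, 11.66 and 11.79 in control2, and 10.23 and 9.62 under ABA. It rose by 1.01 ± 0.20 under IAA, fell by 1.80 ± 0.20 under ABA against control2 and rose by 1.85 ± 0.20 against control1. RNA measures also differed between arrays. The 3' minus 5' actin value averaged 0.89 in control1 and 0.47 under IAA, and 1.36 in control2 and 1.39 under ABA. The 3' minus 5' value of cyclophilin averaged 1.42 in control1 and 1.32 under IAA, and 1.70 in control2 and 1.67 under ABA. The 5' minus 3' value of the poly-A spike-ins averaged -1.33 in control1 and -1.29 under IAA, and -0.66 in control2 and -0.72 under ABA. By these 3 measures ABA stood with control2. The GAPDH value ranged from 0.94 to 1.07 over the 4 groups and separated ABA from neither control set. The hybridization spike-ins, at 10.32 in control1, 10.37 under IAA, 10.47 under ABA and 11.84 in control2, put ABA with control1 and IAA. The part of these differences in the results was not tested.

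**Figure D5:**
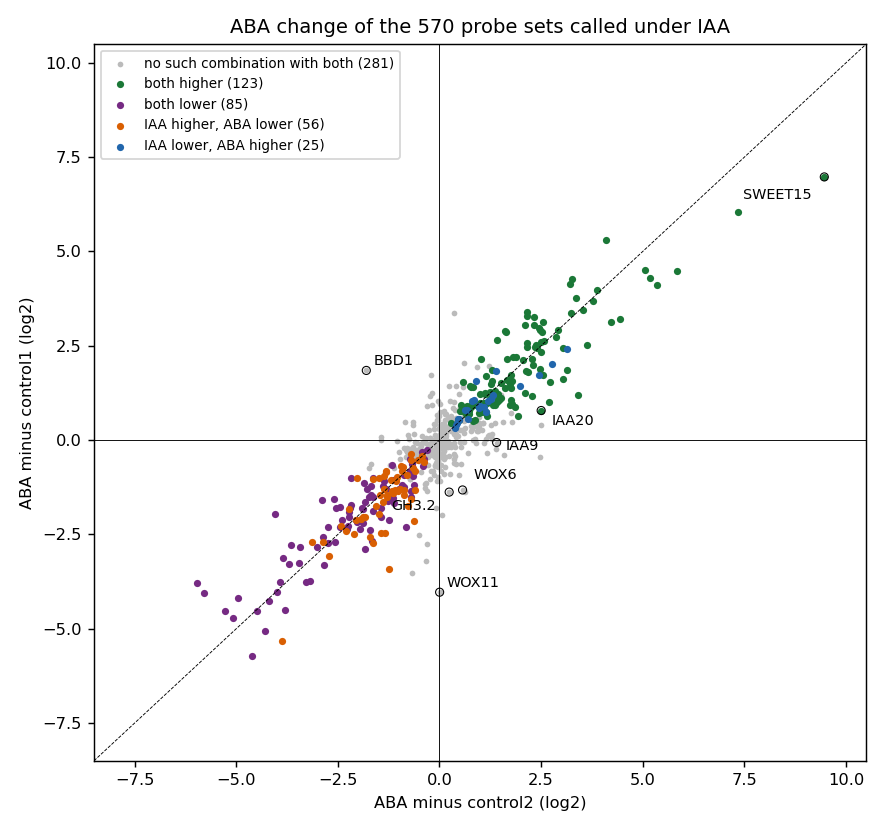
ABA change against control2 (x axis, log2) and against control1 (y axis, log2) of the 570 probe sets called under IAA, with the dashed line marking equal values. Coloured points had the same combination with both control sets. WOX11, WOX6 and GH3.2 lie below the line and BBD1 far above it.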

How the data were processed

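The deposited log2 values, 1 per probe set and array, were made by the authors with GCRMA, per the submitters' processing notes, a method that removes background, scales arrays to each other and combines probes. Its version and the log base were not stated, and log2 was inferred from the range of the values. Background removal weighs most on folds near the bottom of the scale. Of 57381 probe sets, 123 Affymetrix controls and 64 reporters were dropped, and 24100 with log2 values over 5 on at least 2 of the 16 arrays were tested. One linear model for all 8 groups was fitted in R 4.3.3 with limma 3.58.1 (lmFit and eBayes, trend by intensity), leaving 8 residual degrees of freedom. Contrasts were two-sided, adjusted by Benjamini-Hochberg over all tested probe sets, with a threshold of 0.05, and a probe set was moved by both hormones if it passed in both responses. The number of arrays limits the precision.

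Genes came from the platform annotation, where 22436 probe sets had 1 gene, 95 had several and stayed unnamed, and 34663 had none. All 17905 genes were in the RefSeq table of assembly ASM3414082v1, and 2457 had a name. No coordinates were used. Each gene of a list was represented by its probe set with the highest mean over 16 arrays. The members of the comparison, the 40 lists and the rules were chosen with earlier results of these data known. Lists were matched on symbols and synonyms, where symbols alone had been planned, and 27 wrong matches were removed. Named genes were, per combination held with both control sets, the 10 with the largest smallest-of-3 changes, then the 10 largest differences each way, then up to 4 genes per list with the smallest p of the difference and any with opposite calls. Some genes, such as IAA9, WOX11, EM and BBD1, were named after their values were seen. Alternatives were quantile normalization, median centring, no filter, a filter at log2 7, the 8 arrays alone, the replicate number as a block, no intensity trend, a change of at least 2-fold, and leaving out each of the 8 arrays.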

Additional observations from a re-analysis of the deposited data

How the results depend on the processing

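Quantile normalization, median centring, a filter at log2 7 and no intensity trend kept every count of calls within 1.5 times. With no filter, 234 probe sets moved under both hormones with control2 (60 lower under both, 46 higher under IAA and lower under ABA). With control1, no filter gave 99 higher under both, 53 higher under IAA and lower under ABA, and 22 the reverse. On the 8 arrays alone, 18 (control2) and 17 (control1) were lower under IAA and higher under ABA. A 2-fold minimum left 366 calls for IAA, 5528 and 5865 for ABA against control2 and control1, and 5282 and 6039 for the differences. With that minimum 190 probe sets moved under both with control2 (98 both higher, 51 both lower, 38 IAA higher with ABA lower, 3 the reverse) and 186 with control1 (84, 57, 42 and 3). Leaving out 1 array gave 183 to 612 IAA calls, lowest without control1 replicate 1. The control2 combinations then ranged from 50 to 149 both higher, 22 to 106 both lower, 28 to 77 IAA higher with ABA lower, and 3 to 84 the reverse, 106 to 392 in all. With control1 they ranged from 47 to 151, 25 to 119, 31 to 86 and 2 to 84, 106 to 399 in all. Fewer arrays also mean fewer degrees of freedom. With the replicate block, the counts were 634 for IAA and 404 moved under both with control2, and no count moved by over 1.5 times. Replicate numbers were not taken to pair the samples. Rep 2 minus rep 1 correlated at 0.042 between control1 and IAA and 0.056 between control2 and ABA, but over all 28 pairs of groups from -0.185 to 0.446, highest for ACC with JA, control2 with ACC (0.357) and control2 with SA (0.308), with 10 pairs over 0.1. A combination was counted as kept if it held in every refit that included the probe set (14 or 15). That gave 36 of 159 both higher and 14 of 93 both lower. For IAA higher with ABA lower it gave 16 of 76, and for the reverse 1 of 29. Of 2587 pairs of a named gene and a refit, the difference stayed on its side of the threshold in 2484, was lost in 88 and gained in 15, and 0 changed sign with a call. The cause of these shifts was not tested.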
